A study of Mus musculus with 8 samples.

Results

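The irradiation response of spleens from Lmna mutant mice was compared, gene by gene, with that of wild-type spleens. All mice were C57BL/6 animals aged 6 weeks, either wild type or carrying the R527C allele of Lmna, and the labels do not say whether mutants carried 1 or 2 mutant copies. Spleens were taken from unirradiated mice (day 0) or 7 days after a dose of 4 Gy, which gave 4 groups of 2 libraries each and 8 libraries in all. The quantity described for each gene is the log2 difference between irradiated and unirradiated mutants minus the same difference in wild type, called the interaction here. It equals the genotype difference at day 7 minus the genotype difference without irradiation, so a gene with a high interaction either started lower in mutants or ended higher. Of 52636 genes in the count table, 48182 were autosomal, and 16707 autosomal genes passed the filter on low counts and were tested.

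Lmna encodes lamin A and lamin C, the intermediate filament proteins of the nuclear lamina. The spleen filters blood, stores lymphocytes and, in mice, also makes blood cells. Neutrophils are short-lived granulocytes that must be replaced from dividing precursors, which ionising radiation kills. Their precursors load primary granules first, then secondary granules, and switch on surface receptors and migration genes last. Red pulp macrophages are long-lived cells that clear aged red cells and recycle iron, and they withstand radiation better than dividing cells.

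Libraries held 12100784 to 19455470 counts, and levels are given as CPM, counts relative to the scaled library size. Values of the 2 replicates are given in the order of their numbers, and in pairs joined by "against" wild type stands first. Replicates lay much closer together without irradiation (correlation of log2 CPM 0.982 and 0.988) than at day 7 (0.942 in wild type and 0.876 in mutants). Over 2-fold differences separated the irradiated mutant replicates in 42.8% of genes. In irradiated libraries of both genotypes Ddx3y, a Y-linked gene, had 0 counts and Xist was at 1029 to 1776 CPM, whereas unirradiated libraries of both genotypes had 90.9 to 112.7 CPM of Ddx3y and at most 6 counts of Xist. Irradiation and sex-linked expression cannot be told apart in either genotype. The interaction, and its split into start and day 7, compares a genotype difference among libraries with Xist to one among libraries with Y-linked transcripts, so a genotype difference that depends on sex cannot be told apart from one that depends on irradiation. Hepatocyte transcripts, summed over a list without Hp, were at 8.0 to 14.8 CPM without irradiation and at 121 and 137 against 600 and 149 CPM at day 7. Hp, the haptoglobin gene of liver and of neutrophil granules, was at 40.0 and 39.5 against 130.3 and 277.8 CPM and then at 5.50 and 6.00 against 28.6 and 123.8. Alb, the liver's albumin gene, had 0 counts in each of the 4 unirradiated libraries. Adipose transcripts, summed likewise, were at 85.5 and 262.8 against 219.0 and 1797 CPM at day 7. Spic, a factor that defines the red pulp macrophages of the spleen, was at 62.2 to 232.3 CPM in all libraries.

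No autosomal gene passed the interaction test after adjustment (edgeR's quasi-likelihood F test with Benjamini-Hochberg adjustment, 0 of 16707, or 0%). In simulated counts, which gave each gene 1 spread pooled over all 4 groups, the test recovered 3 of 50 genes changed 4-fold and 13 of 50 changed 8-fold. A lack of calls therefore does not show that the responses were alike. The simulation did not carry the wider spread of the irradiated replicates, so its rates may not hold in these libraries. At an unadjusted p below 0.05 there were 268 genes (1.6%), 182 with a higher interaction in mutants (1.09%) and 86 with a lower one (0.515%). In the simulated counts 4.99% of genes without an interaction reached such a p. The number of such genes does not by itself set them apart from chance. Because the simulated spread was equal in all groups, the share that chance gives in these libraries is not known. DESeq2 called 4 genes. The 268 became 107, 109 and 119 when unirradiated wild type replicate 2, unirradiated mutant replicate 2 or unirradiated mutant replicate 1 was left out. They became 1007, 1847 and 2516 when irradiated wild type replicate 2, irradiated mutant replicate 2 or irradiated mutant replicate 1 was, with 548 higher and 1299 lower in the second of these. Everything said below of single genes in the interaction therefore describes sizes and spread, with an adjusted p of 1 for each gene named from that test. A second description counted genes whose responses did not overlap. In each genotype 4 pairings of 1 irradiated with 1 unirradiated library can be formed, and a gene separated when all 4 mutant pairings lay above, or all below, the 4 wild-type pairings. By this rule 975 genes separated upward in mutants (5.84%) and 568 downward (3.4%), or 9.24% together.

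Each interaction was then split into the part present at the start and the part seen at day 7. Among the 182 genes with a higher interaction at unadjusted p below 0.05, 117 (64.3%) owed a share of at least 0.667 of the interaction to the day 7 difference and 15 (8.24%) owed such a share to the unirradiated difference. The remaining 50 drew on both. Their median genotype difference was -0.50 log2 without irradiation and 2.11 at day 7. Of the 86 genes with a lower interaction, 38 (44.2%) were set by the start level, 34 (39.5%) by day 7 and 14 by both. Over all autosomal genes tested the same split gave 38.5% start and 44.7% day 7 among 9044 genes above 0, and 36.9% start and 47% day 7 among 7663 genes below 0. The split is arithmetic on fitted values and no test was made of it. The 182 and 86 genes were chosen by the p of the interaction, which contains both differences, and that choice alone makes these differences larger. Over 2-fold differences separated irradiated replicates in 26.9% (wild type) and 42.8% (mutants) of genes, against 6.23% and 3.91% without irradiation. The shares among the chosen genes therefore do not show when a difference arose. The plot of the genotype difference before and after irradiation shows neutrophil genes mostly to the right of 0 and below the line of equal differences. Macrophage genes lie mostly above that line. Of the 2 macrophage lists, 13 of 19 and 11 of 19 genes were also to the right of 0.

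**Figure D1:**
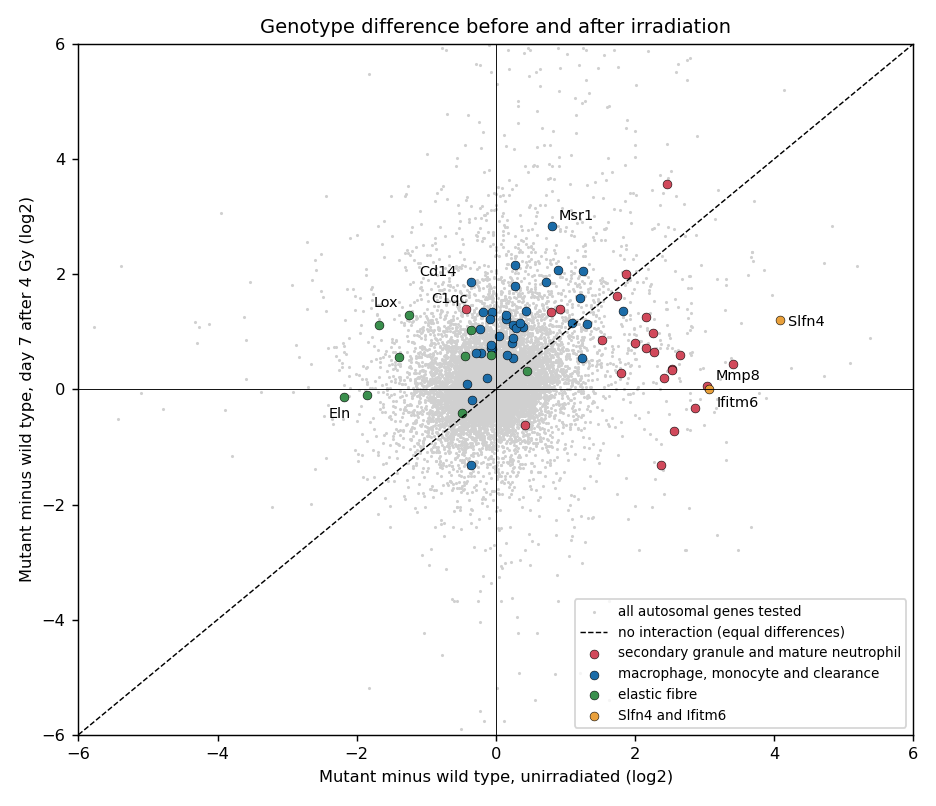
Each point is an autosomal gene, with the log2 difference between mutant and wild type in unirradiated spleens on the horizontal axis and at day 7 after 4 Gy on the vertical axis. The dashed line marks equal differences, that is no interaction. Points of the secondary granule and mature neutrophil lists (red), with Slfn4 and Ifitm6 (orange), lie mostly below the line on the right. Points of the macrophage, monocyte and clearance lists (blue) lie mostly above the line. There are 32 genes beyond 6 log2 on either axis that are not drawn.

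Of all lists, secondary granule and mature neutrophil genes had the lowest median interactions, set mainly by the start level. Unirradiated mutant spleens had far more secondary granule and mature neutrophil transcript than wild type, and at day 7 the genotypes were closer. The mean of the secondary granule list was then 2.29 and 1.18 against 2.45 and 1.68 log2 CPM, and the ranges overlapped. Its summed level was 72.6 and 52.9 against 80.9 and 189.8 CPM, so that by this measure both mutant libraries still lay above wild type. The fit of the 4 unirradiated libraries alone called 372 genes higher in mutants (2.34%) and 89 lower (0.561%), together 2.91%. These and later shares of this fit are of the 15869 autosomal genes tested both there and in the interaction. All 9 secondary granule genes and 10 of 14 mature neutrophil genes were called higher in that fit. The same contrast in the fit of all 8 libraries, which pools the spread over the groups, called 0 genes (374 at unadjusted p below 0.05), and the unirradiated fit called 1909 without wild type replicate 1. The secondary granule list had a median difference of 2.41 log2 without irradiation and 0.20 at day 7, and a median interaction of -2.21. For mature neutrophil genes these medians were 2.08, 0.76 and -1.12, the last -1.78 without irradiated mutant replicate 2. All autosomal genes tested had medians of -0.03, 0.01 and 0.05, and 54.1% of them had an interaction above 0. In the interaction, 4 of 9 and 7 of 14 genes had unadjusted p below 0.05 downward, as many separated downward, and 0 did either upward. Over all autosomal genes tested these downward shares were 0.515% and 3.4%. In bulk tissue, fewer neutrophils and less RNA per neutrophil cannot be told apart.

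Promoter sequence is shown for 3 of these genes, chosen after their values were seen, because they cover a surface protein, a protease and a granule protein. Each run is the 250 bases before the transcription start in RefSeq on GRCm38.p6, 5′ to 3′ on the gene's strand. Capitals mark the PU.1 core GAGGAA (or its reverse complement TTCCTC) and the C/EBP motif TTGCNNAA (or TTNNGCAA). PU.1 and C/EBP proteins are the transcription factors of the myeloid lineage. Cd177 lies at chr7:24760312-24760561 on the minus strand, Mmp8 at chr9:7558179-7558428 on the plus strand and Ngp at chr9:110419558-110419807 on the plus strand.
Cd177: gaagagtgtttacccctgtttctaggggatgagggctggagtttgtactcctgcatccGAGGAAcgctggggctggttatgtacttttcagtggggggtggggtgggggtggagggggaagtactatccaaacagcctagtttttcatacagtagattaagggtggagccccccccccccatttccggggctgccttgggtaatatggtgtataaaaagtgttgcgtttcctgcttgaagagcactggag
Mmp8: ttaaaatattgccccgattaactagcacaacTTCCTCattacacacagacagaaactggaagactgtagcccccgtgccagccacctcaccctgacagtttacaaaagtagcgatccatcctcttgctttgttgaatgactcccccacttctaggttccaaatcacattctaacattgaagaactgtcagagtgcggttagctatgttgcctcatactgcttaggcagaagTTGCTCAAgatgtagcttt
Ngp: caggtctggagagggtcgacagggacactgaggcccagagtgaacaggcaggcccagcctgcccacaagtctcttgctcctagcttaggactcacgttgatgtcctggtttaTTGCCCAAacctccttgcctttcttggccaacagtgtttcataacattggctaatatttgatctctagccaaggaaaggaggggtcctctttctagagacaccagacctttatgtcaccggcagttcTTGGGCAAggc
Of the 22 promoters found for 23 secondary granule and mature neutrophil genes, 13 held the PU.1 core (59.1%) and 8 held the C/EBP motif (36.4%). Among 11447 promoters of autosomal genes tested these shares were 23.1% and 7.73%, and among all 27025 promoters of this length 23.1% and 9.55%. A match describes letters and not a bound site, and no test was made.

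Ifitm6, an interferon-induced transmembrane protein gene on chromosome 7 (GRCm38, start 141015699, end 141017924), showed the pattern in its plainest form. Its level was 20.8 and 19.1 CPM in wild type and 117 and 215 in mutants without irradiation, and 9.65 and 7.95 in wild type and 5.84 and 11.6 in mutants at day 7. Unirradiated mutants stood above all other libraries, and the irradiated groups overlapped. The interaction was -3.06 ± 0.60 (log2, SE; unadjusted p = 9.35e-04, edgeR adjusted p = 1), and the unirradiated difference alone was 3.08 ± 0.26 (adjusted p = 4.02e-04 in the edgeR fit of the unirradiated libraries).

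Mmp9, which encodes gelatinase B of neutrophil granules, stood at 14.5 and 11.4 CPM in wild type and 59.8 and 91.2 in mutants without irradiation. At day 7 it was at 5.05 and 3.18 CPM in wild type and 4.44 and 5.87 in mutants, and the ranges overlapped. Its interaction was -2.20 ± 0.52 (log2, SE). Cd177, a surface protein of neutrophils, was at 23.0 and 17.4 CPM against 86.8 and 207.8 without irradiation, and at 0.811 and 1.77 against 0.934 and 1.11 at day 7. Both genes thus had a several-fold genotype difference at the start and none that exceeded the replicate spread at day 7. Mmp8, the neutrophil collagenase, followed the same course, from 6.90 and 4.74 against 42.4 and 53.4 CPM to 3.52 and 1.06 against 2.22 and 2.49.

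S100a8 and S100a9 encode the subunits of calprotectin, the most abundant protein of the neutrophil cytosol. S100a9 was at 578 and 512.5 CPM in wild type and at 2282 and 4031 in mutants without irradiation, then at 96.2 and 44.5 against 93.4 and 86.8 CPM at day 7. S100a8 had 278 and 253 against 1162 and 2158 CPM, then 50.03 and 18.0 against 56.1 and 47.2. Their interactions were -2.18 ± 0.67 and -2.04 ± 0.75 (log2, SE). In both genes every mutant pairing lay below every wild-type pairing.

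Wild type was not lower after irradiation in every neutrophil gene. Retnlg, a resistin-like gene of neutrophils, was at 8.44 and 8.54 CPM in unirradiated wild type and at 19.6 and 7.24 at day 7, while mutants had 82.2 and 98.1 CPM and then 26.0 and 10.7. Slfn4, a Schlafen gene of myeloid cells, had the largest start difference among the named genes. It was at 23.6 and 21.7 CPM against 275 and 493.5 without irradiation (4.11 ± 0.27 log2, adjusted p = 2.35e-04 in the edgeR fit of the unirradiated libraries). At day 7 Slfn4 was at 45.5 and 18.3 CPM in wild type and 85.0 and 61.4 in mutants, so that a smaller difference remained beyond the range of either group (1.17 ± 0.55 log2, unadjusted p = 0.0736 in the edgeR fit of the irradiated libraries).

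Ngp and Ltf, which encode the granule proteins neutrophilic granule protein and lactoferrin, ended with a lower mean than wild type, within the replicate spread. Ngp was at 334 and 249.6 CPM against 958 and 2067 without irradiation and at 13.2 and 3.71 against 4.79 and 2.16 at day 7. Ltf was at 175 and 142 against 585 and 1288 CPM and then at 13.2 and 3.44 against 8.29 and 2.05. The day 7 ranges of both genes overlapped. Cebpe, the transcription factor that opens secondary granule genes, was at 7.69 and 5.50 against 19.4 and 49.1 CPM without irradiation. At day 7 it had 0.22 to 0.53 CPM in all libraries, near the floor of 3 counts (0.166 to 0.35 CPM in these libraries), so its interaction of -3.33 rests on very few day 7 counts. Within the 2 lists Lcn2 (1.11 log2), Chil3 (0.13), Cxcl2 (1.82), Fpr1 (0.55) and Clec4d (0.47) had interactions above 0, and were named after their values were seen.

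In the list of primary granule and precursor genes the genotype difference was about as large at day 7 as at the start. The list had a median difference of 2.39 log2 without irradiation, about that of secondary granule genes, and still 2.34 at day 7. Its median interaction was 0.32, with 4 of 7 genes above 0 (54.1% over all autosomal genes). Cebpe, described above, belongs to this list. It was the only member at unadjusted p below 0.05 or separating, downward in both cases (0.515% and 3.4% over all). Levels at day 7 were very low. Mpo, the myeloperoxidase gene, was at 53.6 and 47.4 against 132.7 and 402.3 CPM without irradiation and at 0.0901 and 0.706 against 3.85 and 4.76 at day 7. Elane, neutrophil elastase, was at 44.2 and 39.0 against 88.9 and 247.7 CPM and then at 0 and 1.06 against 2.80 and 2.66. Prtn3, proteinase 3, was at 49.6 and 47.4 against 129.5 and 407.5 CPM and then at 0.180 and 0.795 against 3.27 and 9.13. Both irradiated mutant libraries thus lay above both wild-type ones in these 3 genes, which were chosen after their values were seen, at levels where 1 wild-type library was under the floor of 0.270 CPM. The difference between primary and secondary granule genes was not tested.

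**Figure D2:**
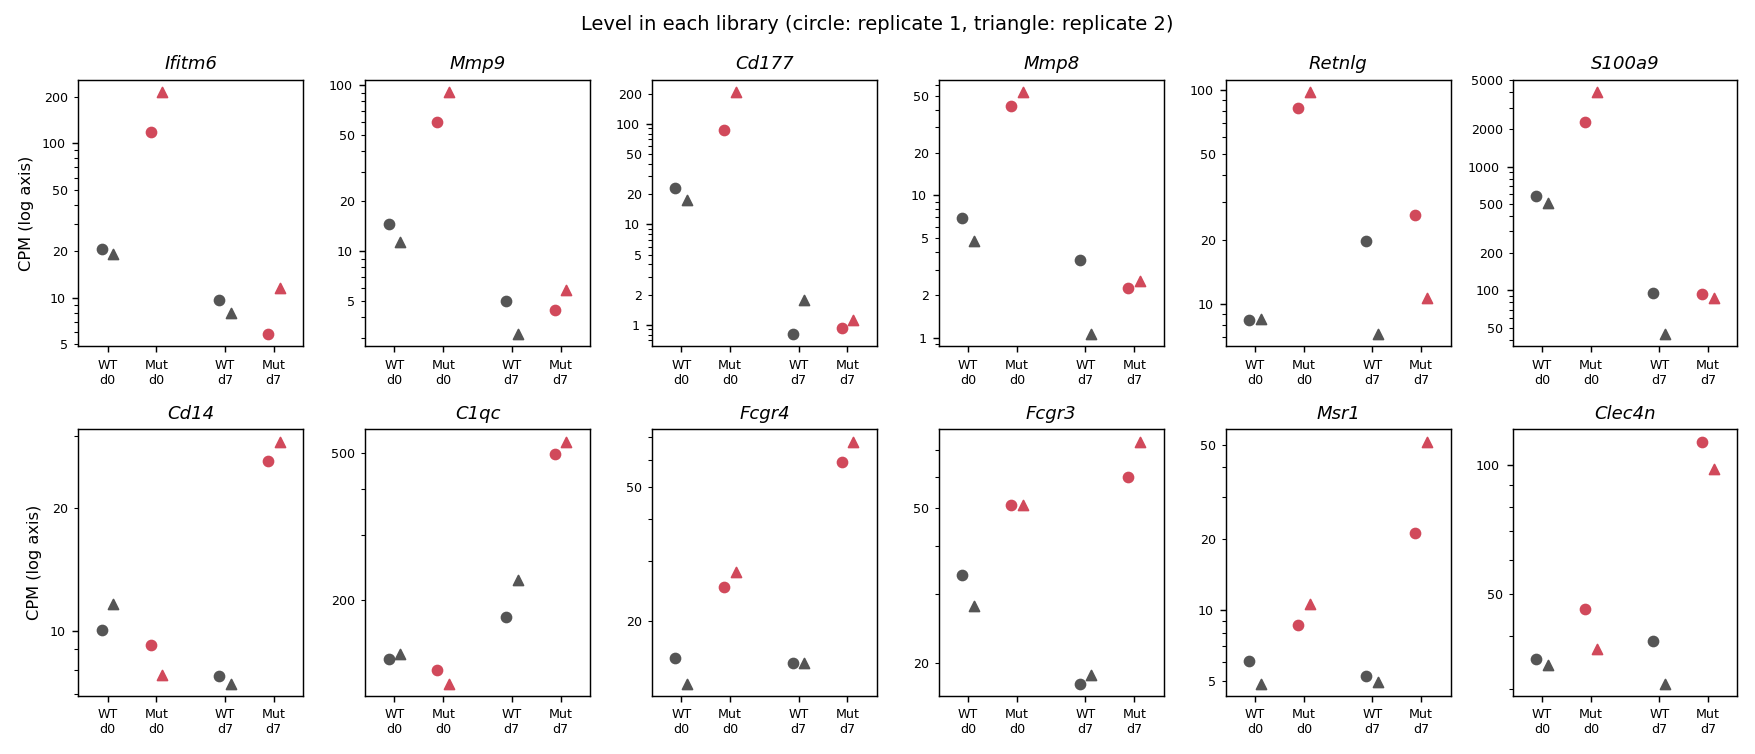
The level (CPM, log axis) of 12 genes in every library, by genotype (grey wild type, red mutant) and day (d0 unirradiated, d7 day 7 after 4 Gy). In the upper row, neutrophil genes and Ifitm6, both unirradiated mutant libraries lie above the other 6. In the lower row, macrophage genes, both irradiated mutant libraries lie above the other 6.

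Macrophage genes had a higher interaction that came mostly from day 7. Monocyte and macrophage genes had a median interaction of 0.84, from 0.25 log2 without irradiation to 1.22 at day 7, and red pulp macrophage and clearance genes one of 0.81, from 0.15 to 1.07. Of 19 genes tested in the first list, 15 were above 0, 5 had unadjusted p below 0.05 upward and 0 downward, and 8 separated upward and 1 downward (5.84% and 3.4% over all autosomal genes). All 19 genes tested in the second list were above 0, 3 had unadjusted p below 0.05 and 6 separated upward. Over all autosomal genes tested, 54.1% were above 0 and 1.09% had such a p upward. The mean of the clearance list was 6.65 and 6.53 log2 CPM in wild type and 6.82 and 6.67 in mutants without irradiation, and 6.71 and 7.10 in wild type and 7.97 and 7.67 in mutants at day 7. With each library left out in turn the medians ranged from 0.59 to 1.16 and from 0.60 to 1.02. Hepatocyte and adipose transcripts were also highest in irradiated mutants, each in a different library (replicate 1 and replicate 2), and their part in the result was not tested.

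Cd14, the co-receptor for bacterial lipopolysaccharide on monocytes and macrophages, had the smallest p among named genes. Its level was 10.02 and 11.6 CPM in wild type and 9.20 and 7.77 in mutants without irradiation, and 7.75 and 7.42 in wild type and 26.2 and 29.1 in mutants at day 7. Only the irradiated mutants stood apart, well beyond the spread of any group. The interaction was 2.22 ± 0.42 (log2, SE; unadjusted p = 7.68e-04, edgeR adjusted p = 1), of which -0.35 was the unirradiated and 1.86 the day 7 difference.

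The 3 genes of complement C1q, the opsonin with which macrophages tag dying cells, lie side by side on chromosome 4 and had similar values. C1qc (start 136889804, end 136893065) was at 138.5 and 142.6 CPM in wild type and 128.8 and 118.6 in mutants without irradiation, and 180.1 and 226.0 in wild type and 497 and 538 in mutants at day 7. C1qb was at 136.5 and 140.8, 139.6 and 121.1, 118.7 and 172.2, and 343.0 and 338.9 CPM in the same order. C1qa was at 176 and 185, 158 and 152, 151.5 and 235.8, and 380.2 and 423.9 CPM. In all 3 genes the unirradiated genotypes were alike and the irradiated mutants were highest, with interactions of 1.53 ± 0.42, 1.32 ± 0.44 and 1.27 ± 0.46 (log2, SE). The irradiated mutant replicates lay close together in all 3 genes.

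The promoters of C1qc, C1qb and Fcgr4 are shown because these genes carry the day 7 difference, and they too were chosen after their values were seen. They lie at chr4:136892915-136893164 (minus strand), chr4:136886201-136886450 (minus strand) and chr1:171018676-171018925 (plus strand) of GRCm38.p6, with the PU.1 core in capitals.
C1qc: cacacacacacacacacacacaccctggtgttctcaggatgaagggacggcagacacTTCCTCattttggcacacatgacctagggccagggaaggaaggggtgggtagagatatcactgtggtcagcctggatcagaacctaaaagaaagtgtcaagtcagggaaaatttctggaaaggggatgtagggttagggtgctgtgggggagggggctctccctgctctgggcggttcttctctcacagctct
C1qb: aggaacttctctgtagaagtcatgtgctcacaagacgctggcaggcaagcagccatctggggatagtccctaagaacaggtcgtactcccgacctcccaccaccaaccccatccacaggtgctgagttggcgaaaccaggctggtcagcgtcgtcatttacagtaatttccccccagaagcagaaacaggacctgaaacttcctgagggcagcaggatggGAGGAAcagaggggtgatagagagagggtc
Fcgr4: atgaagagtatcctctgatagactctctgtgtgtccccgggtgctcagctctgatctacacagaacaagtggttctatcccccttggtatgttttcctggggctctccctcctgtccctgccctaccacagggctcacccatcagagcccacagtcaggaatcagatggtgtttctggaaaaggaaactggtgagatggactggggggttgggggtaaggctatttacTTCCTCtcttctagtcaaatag
Of 26 promoters found for 37 genes of the 2 macrophage lists, 14 held the PU.1 core (53.8%), against 23.1% of autosomal genes tested, and 2 held the C/EBP motif (7.69%), against 7.73%.

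Fcgr4 and Fcgr3 had a difference at the start and a larger one at day 7. Fcgr4, an activating receptor for IgG, was at 15.5 and 13.0 CPM against 25.2 and 27.8 without irradiation, and at 15.05 and 15.01 against 59.2 and 68.0 at day 7. Fcgr3, another activating IgG receptor, was at 33.7 and 28.0 against 50.8 and 50.6 CPM and then at 17.8 and 18.7 against 59.9 and 73.7. In both genes the genotypes did not overlap at either time, and both were called higher without irradiation (adjusted p = 0.0268 and 0.0392 in the edgeR fit of the unirradiated libraries). The interactions were 1.19 ± 0.37 and 1.16 ± 0.37 (log2, SE).

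Other macrophage genes named by the rule had their highest levels in irradiated mutants. Msr1, the class A scavenger receptor, was at 6.07 and 4.87 against 8.59 and 10.6 CPM without irradiation, and at 5.23 and 4.94 against 21.1 and 51.5 at day 7. Clec4n, the receptor dectin-2, was at 35.4 and 34.1 against 46.2 and 37.3 CPM and then at 38.8 and 30.9 against 113.4 and 97.6. Apoc1, an apolipoprotein of macrophages and liver, was at 2.65 to 3.10 CPM in all unirradiated libraries, at 5.23 and 6.18 in irradiated wild type and at 18.7 and 20.9 in irradiated mutants. Vcam1, an adhesion molecule of red pulp macrophages that was named after its values were seen, was at 306.9 and 365.2 against 1056 and 593 CPM at day 7. Slc11a1, a phagosomal metal transporter, was at 19.1 and 25.4 against 44.4 and 54.7 CPM at day 7 (interaction 0.81 ± 0.39 log2, SE).

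In the monocyte and macrophage list 4 members had interactions below 0. Ccr2, the chemokine receptor that brings monocytes out of the marrow, had an interaction of -0.69, Ly6c2 one of -0.19 and Itgam, an integrin chain of monocytes and neutrophils, one of -0.46, with unadjusted p of 0.319, 0.842 and 0.657 in edgeR's test. These were chosen after their values were seen. Nr4a1, a nuclear receptor of patrolling monocytes that is also an immediate early gene, was the fourth and separated downward (-0.96). In the clearance list the lowest value was 0.05, for Siglec1 of marginal metallophilic macrophages. Whether these members differ from the rest of the lists was not tested.

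Neither interferon list had a gene at unadjusted p below 0.05 in the interaction or one that separated (1.6% and 9.24% over all autosomal genes). Of 30 interferon-stimulated genes 24 were below 0, with a median of -0.38, and 19 were called higher in unirradiated mutants (2.34% over all genes tested). Their median difference was 0.81 log2 without irradiation and 0.30 at day 7. Ifih1, which detects double-stranded RNA in the cytosol, stood at 38.0 and 33.96 against 76.9 and 68.5 CPM at the start and at 144.1 and 60.0 against 153.6 and 78.7 at day 7. Of 16 interferon-gamma GTPase genes 13 were above 0 (54.1% over all autosomal genes), with a median of 0.52 and differences of 0.39 and 1.0 log2. The mean of this list at day 7 was 5.89 and 5.64 against 5.54 and 7.19 log2 CPM, so that irradiated mutant replicate 1 was the lowest and replicate 2 the highest. Gbp3, a guanylate-binding protein gene, was at 47.0 and 52.8 against 63.5 and 165.1 CPM at day 7. Gbp8, of the same family but not a member of the list, was at 54.9 and 68.1 against 57.7 and 62.2 CPM without irradiation. At day 7 it was at 30.1 and 38.1 against 81.5 and 117.0 (interaction 1.58 ± 0.42 log2, SE). Gbp8 separated upward, with an unadjusted p of 0.00598 in edgeR's interaction test. Ifitm6, described above, is in neither list and separated downward. The difference between the lists was not tested, and neither lay over 0.5 log2 from the median of all genes in the interaction, the size taken here as a direction.

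**Figure D3:**
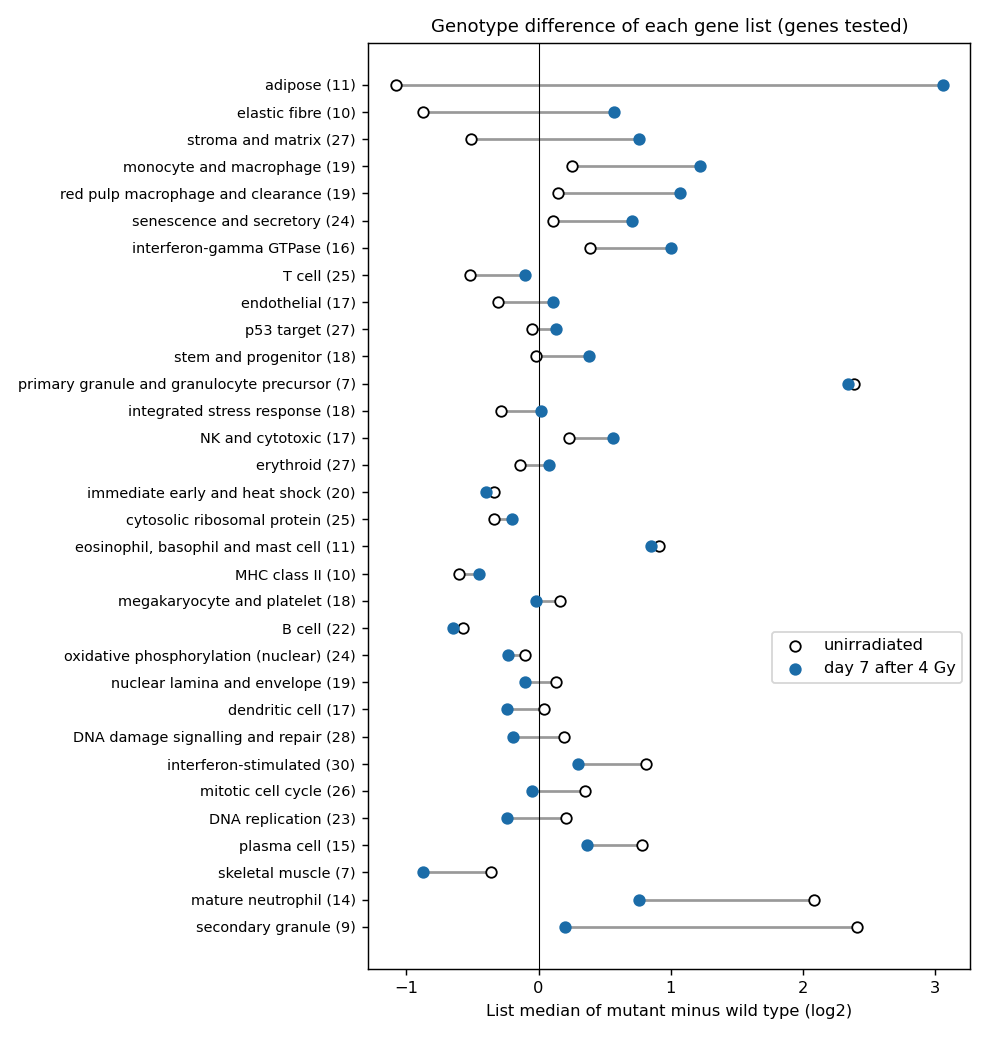
For each list of genes, the median log2 difference between mutant and wild type without irradiation (open) and at day 7 after 4 Gy (filled), with the number of genes tested in brackets, for lists with at least 5 genes tested other than hepatocyte genes, in the order of their median interaction. The lines of the secondary granule and mature neutrophil lists run from above 2 towards 0. Both macrophage lists run from near 0 to above 1, and primary granule genes stay at 2.39 and 2.34.

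Plasma cell genes were higher in unirradiated mutants, with 7 of 15 called (2.34% over all genes tested). None of the 15 plasma cell genes had an interaction above 0 (54.1% over all autosomal genes). Their median was -0.48, from 0.78 log2 without irradiation to 0.37 at day 7. Sdc1, the surface proteoglycan CD138 of plasma cells, was at 10.8 and 12.4 against 33.1 and 30.5 CPM and then at 7.03 and 18.5 against 12.8 and 16.1. Xbp1, the factor that expands the secretory apparatus, was at 138.2 and 167.1 against 331.2 and 333.9 CPM and then at 134.1 and 200.5 against 200.1 and 321.0. Jchain, which joins IgA and IgM subunits, ranged from 515 to 1845 CPM in irradiated wild type alone. Leaving out irradiated mutant replicate 1 gave a list median of 0.04, and leaving out irradiated wild type replicate 2 gave 0.16, so the direction of this list rests on single libraries. Leaving out the other replicate gave -1.53 for mutants and -0.94 for wild type.

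Some lymphocyte genes, mostly of B cells, were lower in unirradiated mutants. B cell genes had medians of -0.57 log2 without irradiation and -0.65 at day 7, and a median interaction of -0.10. Of 22 tested, 10 were called lower at the start (0.561% over all genes tested). T cell genes had medians of -0.52 and -0.10, with 2 of 25 called lower at the start. In the interaction 23 were above 0 (54.1% over all autosomal genes) with a median of 0.42, and 0 had unadjusted p below 0.05 (1.6%). Irradiated mutant replicate 1 stood far from every other library in both lists. Its list mean was 3.28 log2 CPM for B cell genes and 3.45 for T cell genes, against 6.62 and 6.44 in replicate 2. Cd3e, a chain of the T cell receptor complex, was at 9.11 CPM there and at 109.6 in replicate 2. Gzma, granzyme A of cytotoxic cells, was at 33.2 and 36.4 against 61.5 and 45.0 CPM without irradiation and at 17.8 and 17.8 against 38.2 and 48.5 at day 7.

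Genes of elastic fibres and connective tissue had negative median differences without irradiation and positive ones at day 7, where no gene was called. The elastic fibre list had a median of -0.87 log2 without irradiation, 0.57 at day 7 and 1.58 in the interaction, with 9 of 10 genes above 0, 3 at unadjusted p below 0.05, 4 separating upward and 3 called lower in unirradiated mutants. Stroma and matrix genes had medians of -0.51, 0.76 and 1.30, with 3 of 27 called lower at the start. All 27 were above 0, with 1 at unadjusted p below 0.05 and 6 separating upward. Over all autosomal genes tested, 54.1% were above 0, 1.09% had such a p upward and 5.84% separated upward. In the unirradiated fit 0.561% were called lower. The elastic fibre list had a mean of 3.97 and 3.94 log2 CPM in wild type and 3.01 and 3.08 in mutants without irradiation, and 3.51 and 4.84 in wild type and 4.14 and 5.25 in mutants at day 7. The start difference far exceeded its replicate spread, whereas the day 7 groups overlapped.

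Eln encodes elastin itself. It was at 45.2 and 41.7 CPM in wild type and at 10.4 and 13.6 in mutants without irradiation (-1.83 ± 0.19 log2, SE, adjusted p = 0.00106 in the edgeR fit of the unirradiated libraries). At day 7 it was at 27.1 and 62.7 against 18.6 and 65.3 CPM, with the ranges nested. Loxl1, an oxidase that crosslinks elastin, was at 15.9 and 16.2 against 5.89 and 6.38 CPM and then at 8.65 and 29.2 against 18.0 and 38.0. Mfap4, a microfibril protein, was at 13.7 and 14.9 against 3.05 and 3.26 CPM and then at 8.29 and 34 against 9.34 and 28.8. For all 3 genes the interaction was set mainly by the start level.

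The group means of Lox, lysyl oxidase, changed their order between times. It was at 5.10 and 3.86 against 1.44 and 2.33 CPM without irradiation and at 4.51 and 15.1 against 15.1 and 32.7 at day 7 (interaction 2.54 ± 0.90 log2, SE). Mmp2, the gelatinase of fibroblasts, was at 12.8 and 11.6 against 5.28 and 7.35 CPM and then at 7.48 and 13.9 against 18.9 and 22.8 (1.91 ± 0.55 log2, SE). Mmp2 thus lay lower in both unirradiated mutants and higher in both irradiated mutants than in their wild-type counterparts. Ccl24, an eosinophil chemokine made by macrophages, did likewise, at 1.80 and 1.14 against 0.872 and 0.884 CPM and then at 7.84 and 11.5 against 26.8 and 18.4. Col3a1, type III collagen, was at 61.6 and 142.9 against 80.0 and 379.4 CPM at day 7, where replicate 2 was the higher one in both genotypes.

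Adipose transcripts had a higher interaction too, but without irradiation their summed levels overlapped between genotypes, unlike the elastic fibre mean. All 11 adipose genes tested were above 0, with a median interaction of 4.17, 1 at unadjusted p below 0.05 and 0 separating. Over all autosomal genes tested, 54.1% were above 0, 1.09% had such a p upward and 5.84% separated upward. The summed adipose level was 49.8 and 212.6 CPM in wild type and 42.1 and 99.3 in mutants without irradiation. At day 7 it was 85.5 and 262.8 in wild type and 219.0 and 1797 in mutants. Replicate 2 was the higher one in all 4 groups, for which no label gives a reason. Fabp4, the fatty acid binding protein of fat cells, was at 382 CPM in irradiated mutant replicate 2 and at 3.27 to 35.0 in the other 7 libraries. Without irradiated mutant replicate 2 the medians were 0.71 for elastic fibre, 0.27 for stroma and matrix and 1.37 for adipose genes. Leaving out irradiated wild type replicate 1 gave 0.80 for stroma and matrix. The adipose median was 1.57 without unirradiated wild type replicate 2, and leaving out its irradiated counterpart gave 7.48. The part of fat tissue in these matrix values was not tested.

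**Figure D4:**
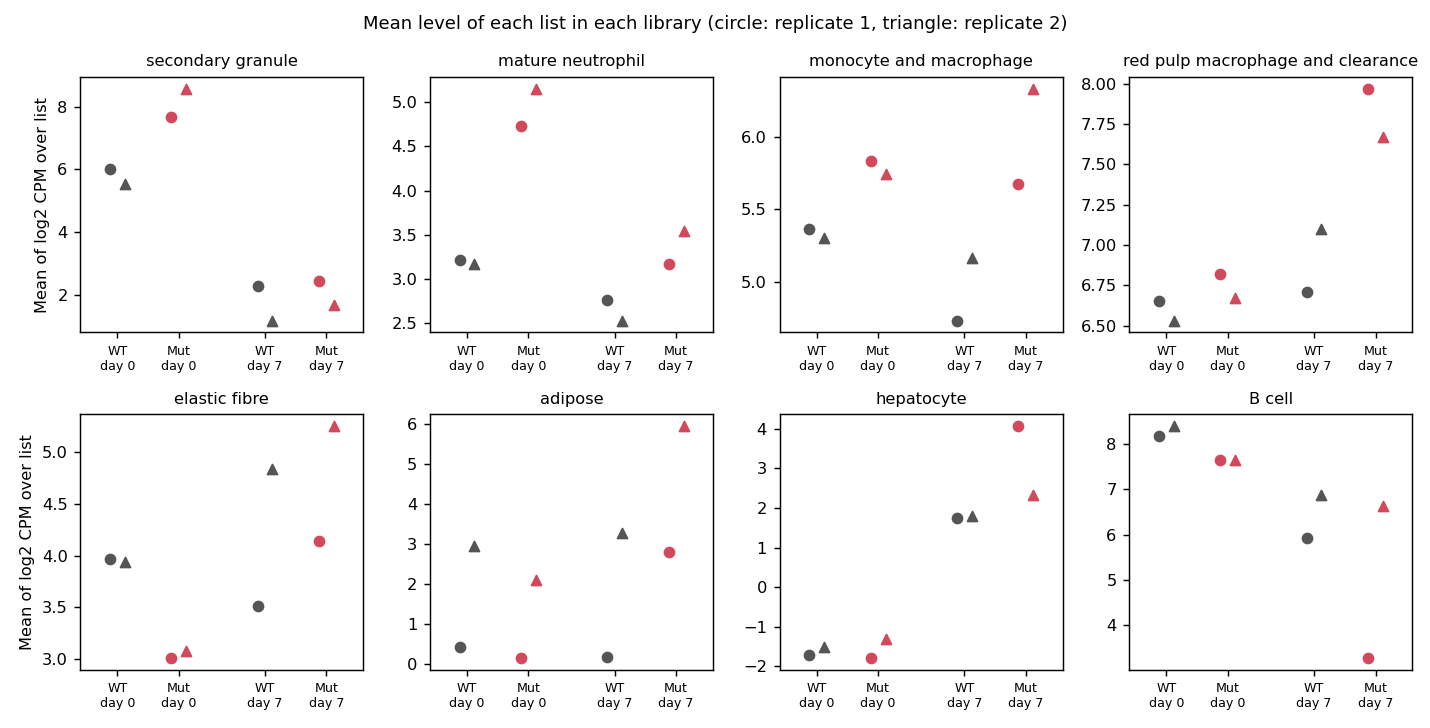
The mean log2 CPM of 8 lists in every library, by genotype (grey wild type, red mutant) and day. Secondary granule and mature neutrophil means are highest in both unirradiated mutant libraries, and the clearance mean is highest in both irradiated mutant libraries. Adipose means are higher in replicate 2 (triangles) of every group, the hepatocyte mean is highest in irradiated mutant replicate 1, and the B cell mean is lowest there.

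Genes of senescence, DNA damage and the lamina, which relate to the study's stated interest in how the mutation leads to senescence, gave no gene past the test. The p53 target list had a median interaction of 0.34 with 18 of 27 genes above 0 (54.1% over all autosomal genes). In it 4 genes separated upward (5.84% over all) and 1 had an unadjusted p below 0.05 upward (1.09%). Phlda3, a p53-induced inhibitor of Akt, was that gene, at 9.28 and 13.1 against 5.23 and 5.40 CPM without irradiation and at 21.4 and 32.0 against 28.0 and 34.7 at day 7. Its interaction of 1.31 ± 0.47 (log2, SE) was set mainly by the start level. Cdkn1a, the p21 cell cycle inhibitor, named after its values were seen, was at 49.2 and 49.6 against 157.7 and 62.5 CPM at day 7 (1.04 ± 0.64 log2, SE), and Mdm2, the ubiquitin ligase that restrains p53, had an interaction of 0.03.

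In the senescence and secretory list 19 of 24 genes were above 0 (54.1% over all autosomal genes), with a median of 0.74. At unadjusted p below 0.05 there were 0 upward and 2 downward (1.09% and 0.515% over all). The median was -0.11 without irradiated mutant replicate 2 and 1.22 without irradiated mutant replicate 1, so its sign rests on 1 library. Cdkn2a, which encodes the cell cycle inhibitors p16 and p19Arf, was at 0.835 and 1.83 against 0.829 and 1.67 CPM without irradiation and at 1.44 and 3.003 against 7.47 and 7.58 at day 7. Only irradiated mutants stood apart, at low levels (1.84 ± 0.89 log2, SE, unadjusted p = 0.0733 in edgeR's test). Mmp3, stromelysin, went the other way, from 1.14 and 2.09 against 2.36 and 4.93 CPM to 68.0 and 13.6 against 6.54 and 15.1. Il1b, the interleukin 1 beta gene, was at 12.3 and 12.8 against 18.4 and 15.1 CPM and then at 14.2 and 12.4 against 9.11 and 8.14.

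Lmna was at 108.5 and 81.3 CPM in wild type and 86.9 and 86.3 in mutants without irradiation, and 212.8 and 112.9 in wild type and 284.4 and 57.7 in mutants at day 7. Its interaction was 0.20 ± 0.94 (log2, SE, unadjusted p = 0.835 in edgeR's test), and its sign changed with the method. A substitution need not alter the transcript's level, so this value does not check the genotype labels. Of 19 lamina and envelope genes tested, 0 had unadjusted p below 0.05, 15 were below 0 and the median was -0.16. Over all autosomal genes tested, 1.6% had such a p, 54.1% were above 0 and the median was 0.05. Syne1, the outer nuclear membrane protein nesprin-1, was at 42.5 and 19.9 against 67.1 and 71.8 CPM and then at 29.0 and 32.4 against 32.2 and 34.7 (-1.03 ± 0.52 log2, SE).

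A few genes with a lower interaction parted mainly at day 7. Ccn1, a matricellular growth signal, was at 5.01 and 5.69 against 10.2 and 4.70 CPM without irradiation and at 28.0 and 15.7 against 4.44 and 3.27 at day 7 (-2.99 ± 0.69 log2, SE). Gmpr, guanosine monophosphate reductase, was at 3.60 and 6.96 against 4.54 and 6.56 CPM and then at 79.3 and 21.5 against 6.54 and 5.54 (-3.14 ± 0.88 log2, SE). Errfi1, a feedback inhibitor of the epidermal growth factor receptor, was at 45.3 and 95.3 against 24.2 and 31.0 CPM at day 7, and Per1, a clock gene, at 68.1 and 49.5 against 35.0 and 20.4. In all 4 genes both irradiated wild-type libraries lay above both irradiated mutants. Without irradiation the ranges of Ccn1 and Gmpr overlapped. Errfi1 was then at 10.5 and 11.3 against 9.77 and 8.47 CPM and Per1 at 22.3 and 21.8 against 18.7 and 19.5. Both of these already lay somewhat lower in the unirradiated mutants.

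The fits of the unirradiated and of the irradiated libraries share no library, so genes called in one can be read in the other. Of the 372 genes called higher in unirradiated mutants, 301 were also tested at day 7. The rest, such as Cebpe, did not pass the filter on low counts there. Genes that fell to very low levels are thus left out of the shares that follow. At day 7, 266 of the 301 (88.4%) were still above 0, against 46.7% of all genes tested in both fits. Their median was 1.39 log2 without irradiation and 0.73 at day 7, 117 (38.9%) stayed over 1 log2 higher, and 111 (36.9%) lay within 0.5 log2 of 0, against 78.6% of all genes. The genes were chosen for their start difference, which by itself makes the second median the smaller one, so the medians do not show a loss. Lilr4b, an inhibitory receptor of myeloid cells, was at 11.5 and 8.16 against 66.3 and 71.9 CPM and then at 9.82 and 11.9 against 18.9 and 42.4. The share above 0 was 62.2% without irradiated mutant replicate 2, with a median of 0.31, and the median was 1.19 without irradiated wild type replicate 2.

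Of the 89 genes called lower in unirradiated mutants, 83 passed the filter on low counts at day 7. Of those, 57 (68.7%) were still below 0, against 53.3% of all genes, with medians of -1.04 and -0.32 log2. The share below 0 was 31.8% when irradiated wild type replicate 2 was left out and 38.8% when irradiated mutant replicate 1 was, and the median then changed sign (0.36 and 0.12). Leaving out irradiated mutant replicate 2 gave 88.1% and leaving out irradiated wild type replicate 1 gave 88.4%, so no direction can be given for these genes at day 7. Cpxm2, a carboxypeptidase-like matrix gene, was at 17.4 and 16.6 against 4.01 and 4.42 CPM and then at 3.60 and 9.98 against 10.3 and 6.2. Trib3, a pseudokinase induced by amino acid stress, was at 5.50 and 8.10 against 0.698 and 1.21 CPM and then at 40.9 and 10.2 against 72.1 and 3.82, where the mutant replicates lay on either side of both wild-type ones.

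In the irradiated libraries alone 0 of 15061 autosomal genes were called (0%, edgeR's quasi-likelihood F test with Benjamini-Hochberg adjustment), against 10 with DESeq2. At an unadjusted p below 0.05 there were 136 genes higher in mutants (0.903%) and 11 lower (0.073%), together 0.976%. A threshold of 0.05 by itself admits a larger share than this when no gene differs. Of these 136, 120 passed the filter on low counts without irradiation. There 103 (85.8%) were above 0, against 49.3% of all genes, with medians of 2.16 log2 at day 7 and 0.81 at the start. Genes chosen for a small p in one fit have a larger difference there than in another by that choice alone, so the 2 medians do not show that the difference grew.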

How the data were processed

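RNA from 8 mouse spleens was measured by mRNA sequencing, in 4 groups of 2 libraries taken from the sample titles. The authors deposited raw counts for 52636 genes, in whole numbers with no normalisation. Trim Galore, Subread and featureCounts are named in the submitters' processing notes, with the builds mm10 and hg38 and no versions. Strand handling and the treatment of reads shared by several genes are not stated there, so counts of paralogs and overlapping genes are uncertain. The labels' growth protocol is about human cultures and was not used. Names and GRCm38 coordinates came from GENCODE M21, matched by unversioned identifier (52489 genes matched, 147 did not), and promoters from RefSeq.

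Counts were filtered with filterByExpr (min.count 10, min.total.count 15) and scaled by TMM, and edgeR 4.0.16 (R 4.3.3) fitted its quasi-likelihood F test to all 8 libraries with 1 term per group, which left 4 residual degrees of freedom. P-values were adjusted by Benjamini-Hochberg over all 17327 genes tested, and autosomal genes are reported. The unirradiated and the irradiated libraries were also fitted on their own. CPM uses the scaled library sizes, and the separation rule used log2 CPM with a prior count of 2. The SE is the absolute log2 difference divided by the square root of F. Replicates were further apart than counting noise allows (chi-square divided by its degrees of freedom, 21 to 369). No label says that replicates came from separate litters or days, so p-values reflect the spread of these libraries alone, and that spread may be technical. A floor of 3 counts corresponded to 0.131 to 0.35 CPM and covers counting error only.

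Of 34 gene lists, 33 had at least 5 genes tested, and 11 of these had a direction, that is a median interaction over 0.5 log2 from that of all autosomal genes. Named genes were up to 12 per direction with the smallest p among separating genes with a mean of at least 5 CPM, up to 4 per list with a direction and 1 per other list, Lmna, and 6 per direction in the separate fits, less predicted genes and receptor segments. The contrast, lists and genes were chosen with earlier results of these data known. Hepatocyte genes other than Hp are given as levels only, since many had 0 counts without irradiation. The hepatocyte list is among the 11 with a direction, but its median is not given. Alternatives were DESeq2 1.42.0, limma-voom (limma 3.58.1) with and without library weights, other scalings, filters and prior counts, a replicate block and leaving out each library. The procedure was tested on simulated data.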

Additional observations from a re-analysis of the deposited data

Results flagged for a closer look

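For 6 of 62 genes checked by name, all 4 pairings of an irradiated with an unirradiated library went one way in mutants and all 4 the other way in wild type (log2 CPM). The 62 are a selection from the genes that the rule names. Over all 16707 autosomal genes tested, 196 (1.17%) did this, 121 of them upward in mutants. The difference itself had an adjusted p of 1 in edgeR's interaction test for each. Cd14 had mutant pairings of 1.5 to 1.89 and wild-type pairings of -0.64 to -0.37 (interaction 2.22). Gbp8 had 0.39 to 1.02 in mutants and -1.17 to -0.53 in wild type (1.58). For Fcgr3 these were 0.24 to 0.54 and -0.92 to -0.58 (1.16), and for Slc11a1 0.04 to 0.36 and -0.92 to -0.28 (0.81). Cpxm2, lower in unirradiated mutants, had 0.48 to 1.33 in mutants and -2.23 to -0.73 in wild type (2.28). Ccn1 went the other way, with -1.6 to -0.08 in mutants and 1.45 to 2.46 in wild type (-2.99). Of these, 4 are genes of macrophages or interferon-gamma targets and 2 are matrix genes. The 4 pairings of a genotype share libraries and are not independent.

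Xist, a gene of the X chromosome and so outside the autosomal comparison, was at 1490 and 1045 CPM in irradiated wild type and at 1776 and 1029 CPM in irradiated mutants, against at most 6 counts in each unirradiated library. The labels give no sex. Any effect of sex on the irradiation response of either genotype cannot be told apart from irradiation.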

How the results depend on the processing

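Interaction calls numbered 0 with edgeR, also with each library left out (0 to 0) and with a replicate block, against 4 with DESeq2 (Cd14, Ifitm6 and the immunoglobulin segments Igkv1-99 and Ighv1-85) and 50 without a filter on low counts. Genes at unadjusted p below 0.05 in the interaction numbered 268, or 352 with the replicate block, 715 without a filter, 91 among genes with a mean of at least 5 CPM, 163 with limma-voom and library weights, and 107 to 2516 with each library left out. The unirradiated fit called 461 genes, 1235 without a filter, 1419 with the replicate block, 0 in the fit of all 8 libraries (374 at unadjusted p below 0.05, smallest adjusted p = 0.422) and 336 to 1909 with each library left out, the highest without unirradiated wild type replicate 1. The irradiated fit called 0 genes (147 at unadjusted p below 0.05), 10 with DESeq2, 46 without a filter and 0 to 93 with each library left out (93 without irradiated mutant replicate 2 and 18 without its partner). With a boundary of 1/2 between start and day 7, 83 of 268 genes were set by the start level, against 53. Where 1 library was left out of a group, the lone one is assumed to vary like the other groups. The cause of these changes was not tested. Equal replicate numbers were not taken to pair the libraries. No label says that they do, and correlations of replicate deviations between groups ran from 0.035 to 0.467, with unirradiated mutants at 0.035 and 0.085 against the irradiated groups and the other 4 comparisons between 0.156 and 0.467.

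Signs held in 9 of 11 list medians and in 59 of the 62 genes checked by name under the alternatives run. The 9 include the hepatocyte list, in which many genes had 0 counts without irradiation. The plasma cell median ranged from -1.53 to 0.16 and the senescence and secretory median from -0.11 to 1.22 with each library left out. With each library left out the interaction of Jchain was at most 0.27, and that of Hp, the haptoglobin gene, lay between -0.13 and 2.09. Lmna was at -0.08 with limma-voom, -0.13 with library weights, -0.04 with the block, -0.16 as a difference of mean log2 CPM, and between -1.34 and 0.86 with each library left out. The secondary granule median stayed between -3.06 and -1.57 and the mature neutrophil median between -1.78 and -1.02.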

Other observations

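All cell cycle genes tested had an interaction below 0 in the fit of all 8 libraries, yet none passed at unadjusted p below 0.05. All 26 mitotic genes were below 0 with a median of -0.40, and all 23 DNA replication genes with a median of -0.45. Irradiated libraries differed widely in them: Mki67, a marker of dividing cells, was at 3709 and 2039 CPM in irradiated wild type and at 5095 and 703 in irradiated mutants, against 623 to 1288 without irradiation. Of 28 DNA damage and repair genes, 24 were below 0, with a median of -0.34. Over all autosomal genes tested, 54.1% were above 0, the median was 0.05 and 1.6% had an unadjusted p below 0.05. The irradiated groups overlapped in the mean of each of these 3 lists.

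Erythroid genes had a median interaction of 0.12, with 19 of 27 above 0 (54.1% over all autosomal genes). They had a median irradiation difference of 1.70 log2 in wild type and 1.86 in mutants. Their summed level was 203000 CPM in irradiated mutant replicate 1 and 17590 in replicate 2, around 87110 and 89010 in irradiated wild type. Arg1, the arginase of alternatively activated macrophages and of liver, was at 5.26 and 101.1 CPM in irradiated mutants and at 0.180 and 0.795 in irradiated wild type. Hdc, which makes histamine in basophils and mast cells and is expressed in neutrophils too, was at 5.89 and 5.50 against 21.6 and 37.3 CPM without irradiation and at 4.33 and 2.65 against 3.50 and 8.91 at day 7. Atf5, a factor of the amino acid stress response, was at 29.98 and 34.4 against 13.4 and 17.5 CPM and then at 38.6 and 31.6 against 124.9 and 23.1, where irradiated mutant replicate 1 alone was high.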
